A study of Drosophila melanogaster with 36 samples.

Results

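The genes described here are the 33 nuclear genes for subunits of mitochondrial complex I (NADH dehydrogenase) that carry an ND- symbol in Drosophila, taken from a fixed list of identifiers among the 13820 gene identifiers of the thorax arrays. All 33 had a value on all 36 arrays and entered the tests, which covered 13791 genes. RNA came from thoraxes of control flies (Mhc-Gal4/+) and of flies carrying UAS-PABPN1-17ala/+; Mhc-Gal4/+, at 2, 6 and 11 days of age. PABPN1-17ala is an alanine-expanded mammalian nuclear poly(A) binding protein, the protein altered in oculopharyngeal muscular dystrophy, and the Mhc-Gal4 driver, carried by both genotypes, expresses it in muscle. Each of the 6 conditions was described as 3 extracts of 50 thoraxes and has 6 two-colour arrays, 3 of them with Cy5-labelled and 3 with Cy3-labelled thorax RNA, each against a common reference pooled from control RNA of day 2. Which Cy5 and Cy3 arrays share an extract was not given, so 3 arrays of a dye, not 6, were counted as the replicates of a condition.

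Complex I passes electrons from NADH to ubiquinone and pumps protons across the inner mitochondrial membrane. Its peripheral arm reaches into the matrix, where FMN takes up the electrons and a chain of iron-sulphur clusters carries them to the quinone site; the membrane arm holds the proton pumps, whose central parts are encoded by mitochondrial DNA. Accessory subunits surround this core and are needed for its assembly and stability. Flight muscle, which fills most of the thorax, is among the tissues of the fly richest in mitochondria. The places of the subunits given below are those known from the mammalian enzyme.

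Values are the deposited log ratios, read as log2 of thorax RNA over reference; neither the log base nor the direction was given in the sources used here. With this reading GstD1, a glutathione S-transferase gene used as an oxidative stress reporter, was called higher with PABPN1-17ala on every day, by 2.17, 1.05 and 1.37 on the log2 scale at days 2, 6 and 11. A gene was called when the limma p-value, taken as the larger of the fits to the Cy5 and to the Cy3 arrays and adjusted over all genes by the Benjamini-Hochberg method, was below 0.05. Array medians over all genes lay between -0.06 and 0.04. Correlations between arrays of the same dye were no lower than -0.025 for Cy5 and -0.113 for Cy3, and reached -0.49 between arrays of opposite dyes. PABPN1-17ala day 11 replicate 6 held 673 of the 933 empty values, none of them in a complex I gene. One label of PABPN1-17ala day 2 replicate 1 names the control genotype; on this array the median of the complex I genes was -0.42, against -0.72 to -0.55 on the other 5 of its condition, and 5 complex I genes were called at day 2 with and without it.

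Most complex I transcripts lay below control in PABPN1-17ala thoraxes at days 2 and 6, and fewer did at day 11. The median log2 difference over the 33 genes was -0.61 at day 2, -0.90 at day 6 and -0.04 at day 11, beside -0.01, -0.01 and 0.03 over all genes tested. With quantile normalization within each dye it was -0.71 at day 2 and -0.52 at day 6, so that day 6 no longer lay below day 2. At day 2, 28 of the 33 genes lay below control on both dyes, where 30.0% of all genes did; at day 6 again 28, where 33% did; and at day 11, 13, where 19.9% did. By the adjusted test, 5 genes were called lower at day 2 (0.283% of all genes), 14 at day 6 (0.667%) and 5 at day 11 (0.428%), and none was called higher on any day. Without adjustment, p was below 0.05 for 22, 24 and 8 genes in the lower direction and for 1, 0 and 2 in the higher direction. Over all 13791 genes tested it was below 0.05 for 543, 679 and 826 in either direction. Averaged over the days, 20 of the 33 were called lower, where 1.44% of all genes were. The 5 calls of day 11 depended on pooling the spread of all conditions, since a fit to the arrays of that day alone called none of them. With single arrays left out in turn, the counts ran from 4 to 11 at day 2, from 8 to 19 at day 6 and from 3 to 6 at day 11; 11 was reached without PABPN1-17ala day 11 replicate 4, and 8 without control day 6 replicate 5 or PABPN1-17ala day 6 replicate 6. The 3 genes called on every day were ND-51, ND-24 and ND-23.

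**Figure D1:**
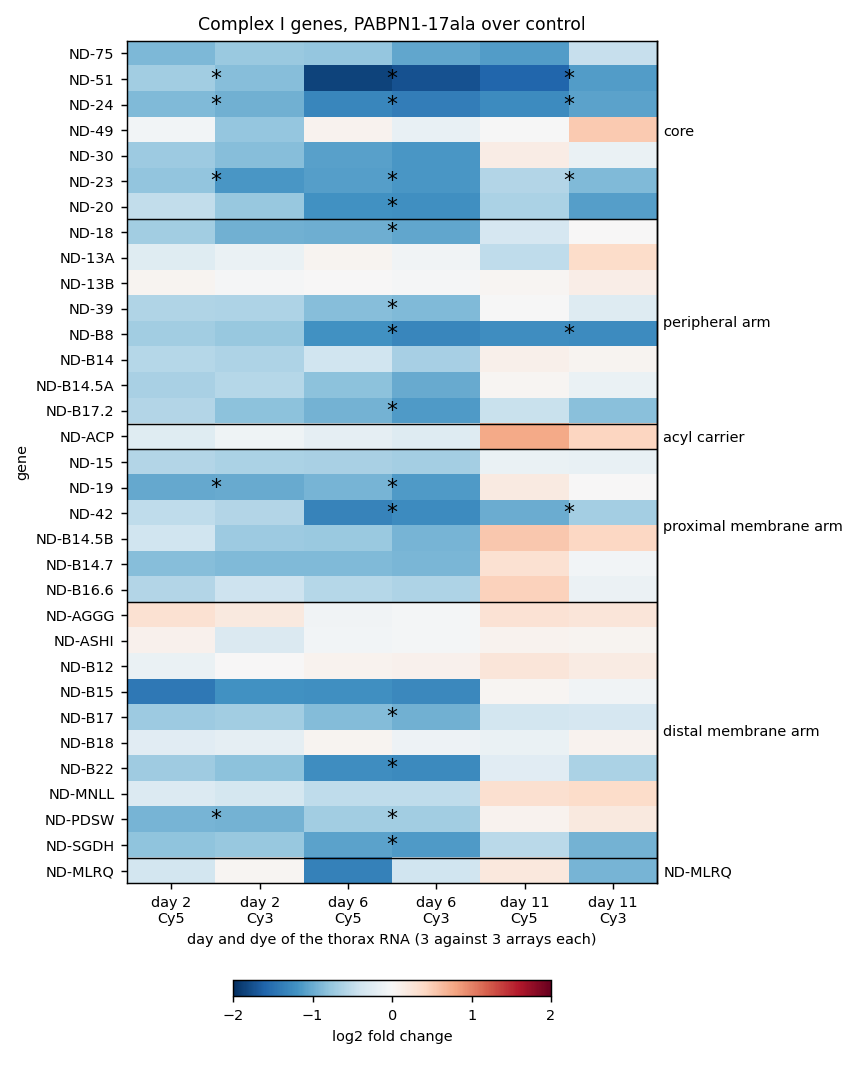
Log2 fold change of PABPN1-17ala over control for each of the 33 complex I genes (rows, grouped by place in the complex), at days 2, 6 and 11 on the Cy5 and the Cy3 arrays (columns, 3 against 3 arrays each); blue is lower, red is higher and a star marks a gene called at that day. The stars number 5, 14 and 5 at days 2, 6 and 11, all on blue cells.

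The median ratio of the 33 genes on single arrays shows the same course. In controls it lay between -0.03 and 0.06 at day 2, between -0.34 and -0.09 at day 6 and between -0.49 and -0.09 at day 11. In PABPN1-17ala thoraxes it lay between -0.72 and -0.42 at day 2, between -1.16 and -0.94 at day 6 and between -0.82 and -0.15 at day 11. The genotypes did not overlap at days 2 and 6 and overlapped at day 11, where the PABPN1-17ala arrays were also the most spread. In whole thoraxes, fewer muscle cells and less RNA per cell cannot be told apart. Of 24 identifiers for sarcomere genes taken as muscle markers, 0, 1 (TpnC4) and 0 were called lower at days 2, 6 and 11. On both dyes 8, 17 and 11 lay below control, where 30.0%, 33% and 19.9% of all genes did. Above control on both dyes lay 13, 5 and 4. The median difference of the 24 was 0.06, -0.14 and -0.11. For fln the differences were -0.88, -1.52 and -1.41. At day 11 bt differed by -1.62, Mlp84B by -1.49 and Mf and Zasp52 by -1.31 each, without calls. In the mean of the days TpnC4 and fln were called lower and 1 identifier of Mlp60A higher. At day 6 the sarcomere median ran from -0.72 to -0.11 over the PABPN1-17ala arrays and from -0.58 to -0.04 over the controls. Over single arrays it ran from 0.01 to 0.18 at day 2 and from -1.71 to -0.13 at day 11 in PABPN1-17ala thoraxes, against -0.20 to 0.36 and -0.96 to -0.18 in controls. None of the 8 fat body genes was called on any day (medians 0.02, -0.06 and 0.06), nor any of the 13 identifiers for neuronal genes (-0.03, -0.08 and -0.09). Log ratios to a reference do not show which markers are absent, and the part of cell makeup in the complex I differences was not tested.

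**Figure D2:**
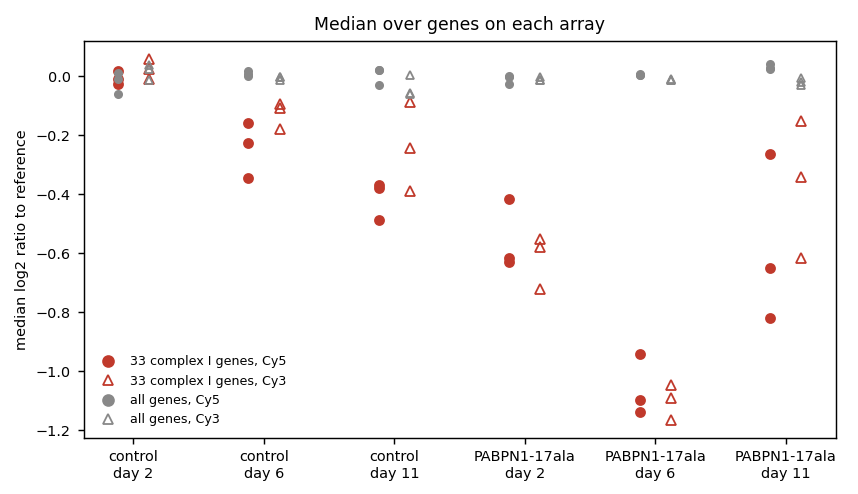
Median log2 ratio to the reference over the 33 complex I genes (red) and over all genes (grey) on each of the 36 arrays, by condition; filled circles are Cy5 arrays and open triangles Cy3 arrays. The red points of PABPN1-17ala day 6 lie between -1.16 and -0.94, below all control arrays, while at day 11 the ranges of the genotypes overlap.

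Of the 7 core subunits of the peripheral arm, the calls numbered 3, 4 and 3 at days 2, 6 and 11, all lower, with medians of -0.79, -1.13 and -0.79. ND-51 (CG9140) is the homologue of NDUFV1, which binds NADH and FMN and is the entry point of electrons. At day 2 its ratios ran from -0.22 to 0.37 in controls (median 0.03) and from -0.99 to -0.43 in PABPN1-17ala thoraxes (median -0.70). At day 6 they ran from 0.18 to 0.76 (median 0.43) and from -1.69 to -1.11 (median -1.37). By day 11 they ran from -0.25 to 0.30 (median 0.09) and from -1.80 to -0.59 (median -1.34). The genotypes were apart on all 3 days. ND-51 was 1.71-fold lower at day 2 (log2 difference -0.77, SE 0.10 on Cy5 and 0.12 on Cy3, adjusted p = 0.0016), 3.47-fold lower at day 6 (-1.79, adjusted p = 1.2e-06) and 2.55-fold lower at day 11 (-1.35, adjusted p = 0.00031). The value at day 6 was the lowest of any complex I gene on any day. A fit to the arrays of the compared day alone took away the calls of days 2 and 11.

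ND-24 (CG5703) is the homologue of NDUFV2, the partner of ND-51, which carries an iron-sulphur cluster beside the FMN. Control ratios ran from 0.15 to 0.64 at day 2 (median 0.33), from 0.01 to 0.21 at day 6 (median 0.11) and from 0.06 to 0.66 at day 11 (median 0.54). In PABPN1-17ala thoraxes they ran from -0.72 to -0.44 (median -0.54), from -1.42 to -1.09 (median -1.22) and from -0.99 to -0.27 (median -0.74). No array of either genotype reached into the range of the other. The differences were -0.92 at day 2 (SE 0.14 on each dye, adjusted p = 0.0033), -1.35 at day 6 (adjusted p = 8.3e-05) and -1.16 at day 11 (adjusted p = 0.0011), or 1.89-, 2.55- and 2.24-fold lower. As for ND-51, the calls of days 2 and 11 were lost in a fit to the arrays of that day alone.

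ND-23 (CG3944), the homologue of NDUFS8, carries clusters on the way to the quinone site. Its ratios at day 2 were -0.31 to 0.13 in controls (median -0.23) and -1.46 to -0.91 with PABPN1-17ala (median -1.14). At day 6 they were -0.36 to -0.14 (median -0.21) and -1.59 to -1.15 (median -1.39), and at day 11 -0.55 to 0.36 (median -0.06) and -1.10 to -0.34 (median -0.83). The genotypes were separate at days 2 and 6, while at day 11 the ranges overlapped when both dyes were put together but not within a dye. The differences were -0.98 (SE 0.13 on Cy5 and 0.16 on Cy3, adjusted p = 0.004), -1.13 (adjusted p = 0.00071) and -0.74 (adjusted p = 0.034). The call of day 6 was lost with quantile normalization, and that of day 11 in 4 of 10 alternatives and without any 1 of 8 single arrays of that day.

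ND-20 (CG9172), whose homologue NDUFS7 holds the last cluster before ubiquinone, was called at day 6 alone. There it ran from -0.34 to 0.10 in controls (median -0.04) and from -1.45 to -1.04 with PABPN1-17ala (median -1.31), a 2.33-fold lower level (-1.22, SE 0.19 on Cy5 and 0.14 on Cy3, adjusted p = 0.0023). At days 2 and 11 its differences were -0.62 and -0.87 and were not called (adjusted p = 0.69 and 0.18). ND-75 (CG2286), the homologue of the large cluster-bearing subunit NDUFS1, differed by -0.82, -0.90 and -0.79 and was called on no single day, but was called in the mean of the days (-0.84, adjusted p = 0.026). Its PABPN1-17ala arrays of day 11 ran from -1.81 to -0.11. Without the highest of them, replicate 4, ND-75 was called lower at days 6 and 11. The remaining core subunits, ND-30 (CG12079) and ND-49 (CG1970), line the arm near the quinone site and carry no cluster in the mammalian enzyme. ND-30 differed by -0.79 at day 2 and -1.13 at day 6 (adjusted p = 0.55 and 0.083) and by 0.01 at day 11, and was called lower in the mean of the days (-0.64, adjusted p = 0.032). ND-49 had differences of -0.41, -0.04 and 0.26 with adjusted p = 1 on each day, and its control ratios of day 2 alone ran from -0.86 to 1.46.

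Of the 8 accessory subunits of the peripheral arm, 0, 4 and 1 were called lower at days 2, 6 and 11, with medians of -0.61, -0.89 and -0.10. ND-B8 (CG15434, homologue of NDUFA2, a small subunit with a thioredoxin-like fold) was the only one called at day 11. Its ratios at day 6 were 0.26 to 0.76 in controls (median 0.57) and -0.91 to -0.32 with PABPN1-17ala (median -0.72). At day 11 they were 0.16 to 1.49 (median 0.82) and -0.68 to -0.25 (median -0.32). The genotypes did not overlap on either day, and the control arrays of day 11 were widely spread. It was 2.39-fold lower at day 6 (-1.26, SE 0.21 on Cy5 and 0.26 on Cy3, adjusted p = 0.013) and 2.38-fold lower at day 11 (-1.25, adjusted p = 0.024), after a difference of -0.72 at day 2 that was not called (adjusted p = 0.47). Without moderation neither day was called, and without any 1 of 4 arrays each call was lost.

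ND-18, ND-39 and ND-B17.2 were called at day 6 alone. ND-18 (CG12203), the homologue of NDUFS4, a subunit added late in assembly, ran from -0.18 to 0.30 in controls (median -0.05) and from -1.31 to -0.65 with PABPN1-17ala (median -0.99) at day 6. It differed by -1.01 (SE 0.16 on Cy5 and 0.19 on Cy3, adjusted p = 0.007) and was near the threshold at day 2 (-0.82, adjusted p = 0.052), but differed by only -0.16 at day 11. ND-39 (CG6020), whose homologue NDUFA9 binds a nucleotide near the join of the arms, ran from -0.21 to -0.01 (median -0.15) and from -1.16 to -0.83 (median -1.02) at day 6, and differed by -0.87 (adjusted p = 0.021). ND-B17.2 (CG3214, homologue of NDUFA12) ran from -0.37 to 0.12 (median 0.02) and from -1.22 to -0.90 (median -1.09), and differed by -1.04 (adjusted p = 0.016). In each of the 3 genes, no PABPN1-17ala array of day 6 reached the control range. At day 11 ND-39 differed by -0.14 and ND-B17.2 by -0.64. The calls of ND-39 and ND-B17.2 at day 6 were lost without moderation and without any 1 of 7 and 5 arrays, and that of ND-39 also with quantile normalization.

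ND-B14.5A (CG3621, NDUFA7) and ND-B14 (CG7712, NDUFA6) differed by -0.61 and -0.59 at day 2 and by -0.91 and -0.52 at day 6, without calls on a day; ND-B14.5A was called lower in the mean of the days (-0.52, adjusted p = 0.049). ND-B14, a protein of the LYR family that holds the acyl carrier protein, lay above control on both dyes at day 11, with ratios of -0.44 to 0.64 in controls (median -0.11) and of -0.44 to 0.44 with PABPN1-17ala (median -0.05). These ranges overlapped almost fully, and the difference was 0.08. The other members of this arm, ND-13A (CG8680, homologue of the zinc-binding NDUFS6) and ND-13B (CG6463, NDUFA5), lay close to control on all days in the mean of the dyes. For ND-13B the differences were 0.01, -0.01 and 0.09, and its ratios at day 11 were -0.67 to 0.31 in controls (median -0.03) and -0.27 to 0.16 with PABPN1-17ala (median 0.03). For ND-13A the differences were -0.18, -0.01 and -0.07, the last joining opposite differences of the dyes. On Cy5 its mean at day 11 was -0.08 with PABPN1-17ala and 0.43 in controls. On Cy3 it was -0.01 and -0.38.

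Of the 6 accessory subunits of the proximal membrane arm, 1, 2 and 1 were called lower at days 2, 6 and 11, and the medians were -0.58, -0.87 and 0.11. ND-19 (CG3683, homologue of NDUFA8, a disulphide-bonded subunit on the intermembrane-space face) was called lower at days 2 and 6 and not at day 11. Its ratios at day 2 were -0.41 to -0.12 in controls (median -0.23) and -1.52 to -1.0 with PABPN1-17ala (median -1.24). At day 6 they were -0.91 to -0.39 (median -0.50) and -1.71 to -1.37 (median -1.67). At day 11 they were -1.36 to -0.64 (median -1.0) and -1.49 to -0.37 (median -0.96). The separate ranges of the earlier days thus merged, with control ratios lower and PABPN1-17ala ratios more spread than before. The differences were -1.02 (SE 0.12 on Cy5 and 0.21 on Cy3, adjusted p = 0.033), -1.03 (adjusted p = 0.0092) and 0.10 (adjusted p = 1). Leaving out any 1 of 9 Cy3 arrays took the call of day 2 away, as did a fit without moderation, and quantile normalization took that of day 6.

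ND-42 (CG6343, homologue of NDUFA10, a matrix-facing subunit related to nucleoside kinases) stayed lower. At day 2 it ran from -0.23 to 0.40 in controls (median 0.06) and from -0.73 to -0.25 with PABPN1-17ala (median -0.51), a difference of -0.54 that was not called (adjusted p = 0.10). At day 6 it ran from -0.36 to 0.12 (median -0.25) and from -1.70 to -1.13 (median -1.51), and was 2.45-fold lower (-1.29, SE 0.13 on Cy5 and 0.10 on Cy3, adjusted p = 4e-05). At day 11 it ran from -1.29 to -0.69 (median -0.89) and from -2.43 to -1.31 (median -1.66), and was 1.79-fold lower (-0.84, adjusted p = 0.0027), a call lost with quantile normalization. All arrays with PABPN1-17ala lay below all controls on each day, while the controls themselves were lower with age.

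The other 4 genes of the proximal membrane arm were not called on any day. ND-B14.7 (CG9350, NDUFA11), ND-15 (CG11455, NDUFS5), ND-B16.6 (CG3446, NDUFA13, also known as GRIM-19) and ND-B14.5B (CG12400, NDUFC2) had differences of -0.87, -0.61, -0.50 and -0.56 at day 2 and of -0.90, -0.66, -0.60 and -0.83 at day 6. At day 11 the values were 0.12, -0.14, 0.17 and 0.47. ND-B14.5B lay above control on both dyes at that age, with control ratios of -1.26 to 0.51 (median -0.68) and PABPN1-17ala ratios of -0.45 to 0.44 (median -0.07), which overlapped. In the mean of the days ND-B14.7 (-0.55, adjusted p = 0.026) and ND-15 (-0.47, adjusted p = 0.017) were called lower.

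Of the 10 accessory subunits of the distal membrane arm, 1, 4 and 0 were called lower at days 2, 6 and 11, with medians of -0.51, -0.60 and 0.02. ND-PDSW (CG8844, homologue of NDUFB10) was the only one called at day 2. Its ratios at that age were 0.02 to 0.35 in controls (median 0.22) and -0.88 to -0.52 with PABPN1-17ala (median -0.78). At day 6 they were -0.40 to -0.14 (median -0.27) and -1.22 to -0.78 (median -0.96), and at day 11 -0.77 to -0.09 (median -0.48) and -0.46 to 0.02 (median -0.39). The genotypes were apart at days 2 and 6 and overlapped at day 11, where PABPN1-17ala lay above control on both dyes. The differences were -0.94 (SE 0.12 on Cy5 and 0.16 on Cy3, adjusted p = 0.0049), -0.70 (adjusted p = 0.031) and 0.14 (adjusted p = 1). The call of day 6 was lost without moderation, with quantile normalization and without any 1 of 5 arrays.

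ND-B22, ND-SGDH and ND-B17 were called at day 6 alone. ND-B22 (CG9306), the homologue of NDUFB9, another LYR protein that binds the acyl carrier protein, ran from -0.48 to -0.08 in controls (median -0.25) and from -1.66 to -1.28 with PABPN1-17ala (median -1.51), and was 2.4-fold lower (-1.26, SE 0.12 on Cy5 and 0.23 on Cy3, adjusted p = 0.007). ND-SGDH (CG9762, NDUFB5), a membrane-spanning subunit, ran from -0.74 to -0.08 (median -0.24) and from -1.78 to -1.04 (median -1.43), and was 2.14-fold lower (-1.10, adjusted p = 0.025). ND-B17 (CG13240, NDUFB6) ran from -0.12 to 0.13 (median -0.09) and from -1.13 to -0.72 (median -0.96), and was 1.88-fold lower (-0.91, adjusted p = 0.041). Again no PABPN1-17ala array of day 6 entered the control range. At day 11 the differences were -0.43, -0.75 and -0.35. The call of ND-B17 was lost without any 1 of 15 arrays, the most among the 24 calls by day. It was also lost without moderation, with centred arrays and with the replicate number as a block. That of ND-SGDH was lost without any 1 of 5 arrays, without moderation and with quantile normalization.

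ND-B15 (CG12859, NDUFB4) had the largest difference at day 2, -1.32, and -1.26 at day 6, and was not called (adjusted p = 0.15 and 0.07). Its ratios at day 2 were -1.04 to 0.22 in controls (median -0.31) and -1.95 to -1.23 with PABPN1-17ala (median -1.63), and at day 6 -0.80 to -0.13 (median -0.44) and -1.90 to -1.41 (median -1.76). The genotypes were apart on both days, and the SE on the Cy3 arrays was 0.33, against 0.13 on Cy5. At day 11 the ranges were -1.05 to -0.78 (median -0.86) and -2.02 to -0.32 (median -0.85), and the difference was -0.02. In the mean of the days ND-B15 was called lower (-0.86, adjusted p = 0.016). PABPN1-17ala day 11 replicate 4 gave the lowest ratio of day 11. Without this array ND-B15 was called lower at days 2 and 6, so the missing calls depended on it.

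ND-AGGG (CG40002, NDUFB2) was the one complex I gene above control on both dyes at day 2, where 2708 of all 13791 genes tested were. Among the complex I genes, its arrays were the only ones wholly above the controls of their dye on any day. The share of all genes with such arrays is not given here. The ratios of ND-AGGG at day 2 were -0.35 to 0.12 in controls (median -0.06) and -0.03 to 0.33 with PABPN1-17ala (median 0.19). Within each dye all 3 PABPN1-17ala arrays lay above all 3 controls, which was also so at day 11, with ratios of -0.54 to -0.12 (median -0.39) and of -0.31 to 0.16 (median -0.05). The differences were 0.25 and 0.27 and were not called (adjusted p = 0.57 and 0.14); at day 6 the difference was -0.05. ND-B12 (CG10320, NDUFB3) lay above control on both dyes at days 6 and 11, by 0.08 and 0.21, with ratios at day 11 of -0.28 to 0.03 in controls (median -0.11) and of -0.21 to 0.27 with PABPN1-17ala (median 0.15). ND-MNLL (CG18624, NDUFB1), a small membrane-spanning subunit, differed by -0.31, -0.51 and 0.34; at day 11 it ran from -0.81 to -0.25 in controls (median -0.51) and from -0.75 to 0.07 with PABPN1-17ala (median -0.09). ND-ASHI (CG3192, NDUFB8) had differences of -0.10, -0.04 and 0.06, with ratios at day 11 of -0.13 to 0.17 (median -0.01) and -0.06 to 0.25 (median 0.10), and ND-B18 (CG5548, NDUFB7) of -0.20, -0.03 and -0.03. No call was made for any of these 5 genes.

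The 2 genes left have a place of their own. ND-ACP (CG9160) is the mitochondrial acyl carrier protein, which sits in both arms of complex I and also serves lipoic acid and iron-sulphur cluster synthesis. It differed by -0.17 and -0.22 at days 2 and 6 and lay above control at day 11 by 0.60, the highest difference of any complex I gene, without a call (SE 0.16 on Cy5 and 0.15 on Cy3, adjusted p = 0.32). Control ratios at that age ran from -1.63 to -0.82 (median -1.51) and PABPN1-17ala ratios from -0.98 to -0.36 (median -0.80), so the ranges overlapped slightly. ND-MLRQ (CG32230) is the homologue of NDUFA4, which is now counted with complex IV. Its differences of -0.17, -0.87 and -0.36 were not called, and its ratios ranged more widely over the 36 arrays than those of any other complex I gene, from -1.44 to 1.45.

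A set of 6 genes stayed close to control on all days in the mean of the dyes, with no such difference beyond 0.27: ND-AGGG, ND-ASHI, ND-B12 and ND-B18 of the distal membrane arm and ND-13A and ND-13B of the peripheral arm. On single dyes differences could be larger, as for ND-13A at day 11. They were picked out after their values were seen. The width of their ratios over the 36 arrays, from 0.54 for ND-B12 to 1.60 for ND-13A, compares with a median of 0.85 over all genes and of 1.94 over the 33. Spot intensities were not used here, so how strong their signals were is unknown. Of the paralogues, 6 genes that share the name of a listed subunit (ND-51L1, ND-51L2, ND-24L, ND-49L, ND-20L and ND-B14.5AL) had median differences of -0.04, 0.00 and 0.06, and none was called on any day. At day 6, where ND-51 differed by -1.79 and ND-24 by -1.35, ND-51L1 differed by -0.01, ND-51L2 by 0.00 and ND-24L by 0.04. The lowest paralogue was ND-20L, at -0.37 and -0.43 at days 2 and 6, beside -0.62 and -1.22 for ND-20. How strong the signals of the paralogues were is likewise unknown. The assembly factors CIA30, sicily, ECSIT and Nubpl lay below control on both dyes at day 2 in 4 of 4 cases, where 30.0% of all genes did. Their medians were -0.23, -0.09 and 0.04 at days 2, 6 and 11. CIA30 had the largest difference, -0.67 at day 2 (adjusted p = 0.10), and none was called. No identifier of the arrays matched the subunits encoded in mitochondrial DNA, which were not analysed here. The 4 succinate dehydrogenase subunits of complex II, the other point where electrons enter the chain, had medians of -0.81, -1.30 and -1.01. Of these, 2, 3 and 2 were called lower, where 0.283%, 0.667% and 0.428% of all genes were. The lists of complexes III (10 genes), IV (14) and V (14), made by symbol, include paralogues. Their medians were -0.37, -0.69 and 0.08 for III, -0.23, -0.03 and -0.01 for IV, and -0.11, -0.24 and -0.001 for V. Called lower were 1, 4 and 1, then 0, 4 and 1, and 0, 3 and 1.

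**Figure D3:**
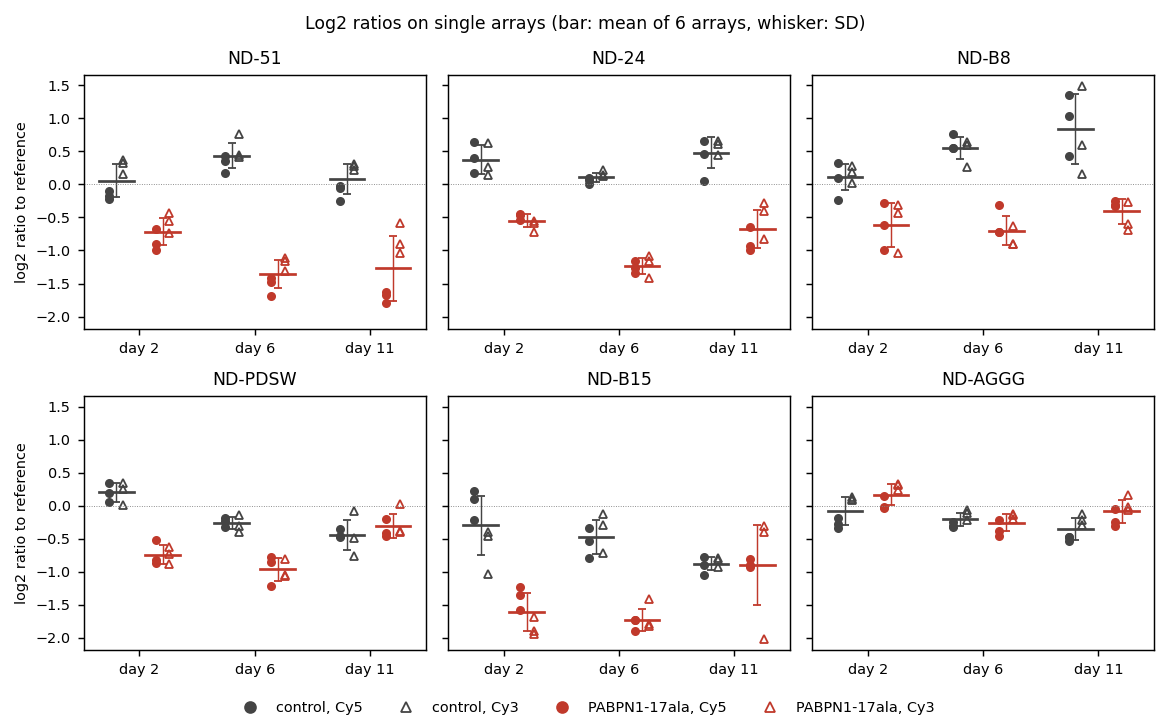
Log2 ratio to the reference on every array for 6 complex I genes, in control (grey) and PABPN1-17ala (red) thoraxes at days 2, 6 and 11; filled circles are Cy5 arrays, open triangles Cy3 arrays, bars the mean of the 6 arrays and whiskers their SD. ND-51, ND-24 and ND-B8 stay apart at day 11 (medians -1.34, -0.74 and -0.32 with PABPN1-17ala against 0.09, 0.54 and 0.82), and ND-PDSW and ND-B15 meet the controls. ND-AGGG differs by at most 0.27 in the mean of the dyes on any day. At days 2 and 11 its PABPN1-17ala arrays lie above all controls of their dye.

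The number of genes whose 6 PABPN1-17ala arrays all lay below every control array of their dye was 23 at day 2, 24 at day 6 and 7 at day 11, beside 2.00%, 4.62% and 1.39% of all genes. The 7 genes of day 11 were ND-51, ND-24, ND-23, ND-B8, ND-B17.2, ND-42 and ND-SGDH, of which ND-B17.2 and ND-SGDH were not called there. All 7 were also among those of days 2 and 6. By place, 5 of 7 core genes were below control on both dyes at day 11, against 3 of 8 in the peripheral arm, 2 of 6 in the proximal and 3 of 10 in the distal membrane arm; these shares were not compared by a test.

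The change of the genotype difference with age was tested as an interaction. From day 2 to day 6 the difference moved down on both dyes in 20 of the 33 genes, where 21.7% of all genes did. The median change was -0.18, and 1 gene was called, where 0.0798% of all genes were called in that direction: ND-51, by -1.02 (SE 0.14 on Cy5 and 0.17 on Cy3, adjusted p = 0.039). From day 6 to day 11 it moved up on both dyes in 27 of 33 and down on both in none, where 33.1% of all genes moved up; the median change was 0.51. No gene of the 33 was called in this contrast by limma, nor any higher among all genes (0%), although 13 of the 33 were above 0 at an unadjusted p below 0.05 and a single fit to all 36 arrays with dye as a covariate called 13. Of all 13791 genes tested, 388 had an unadjusted p below 0.05 in either direction. The share of all genes called in the single fit is not given here. The highest values were those of ND-B14.5B (1.31), ND-B15 (1.24), ND-30 (1.13), ND-19 (1.13) and ND-B14.7 (1.02), and the lowest those of ND-13A (-0.06), ND-B18 (-0.01), ND-B8 (0.01), ND-13B (0.09) and ND-ASHI (0.10). From day 2 to day 11 ND-PDSW was called higher, by 1.08 (SE 0.17 on Cy5 and 0.22 on Cy3, adjusted p = 0.038), where 0.0798% of all genes were; ND-B15 (1.30) and ND-19 (1.11) had like or larger values without a call. The median change over that span was 0.34. Neither interaction call was firm: that of ND-51 was lost without any 1 of 17 arrays, and the count of the last contrast ran from 0 to 4 when single arrays were left out. These contrasts share the arrays of the day they have in common.

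**Figure D4:**
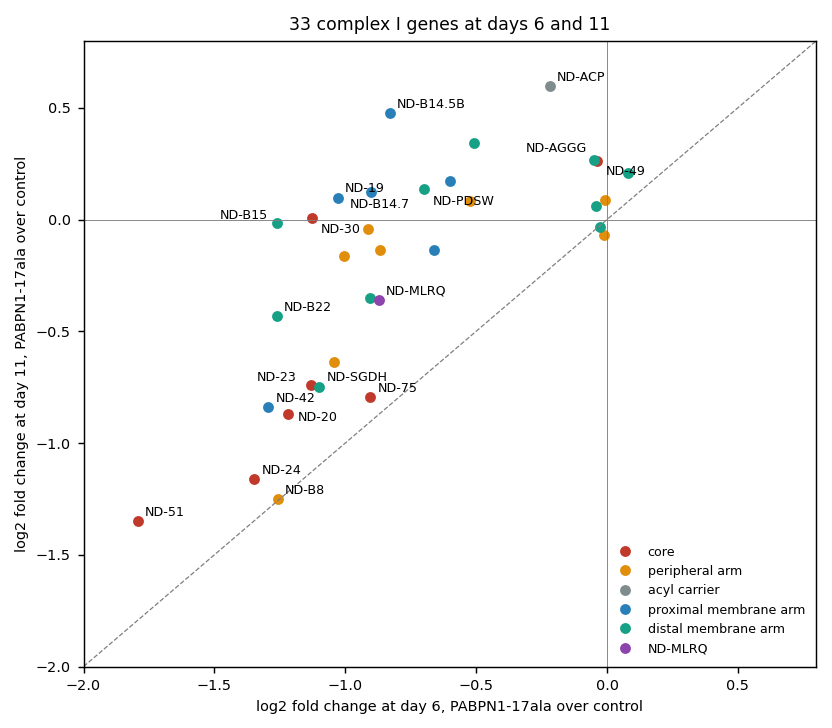
Log2 difference of PABPN1-17ala from control at day 6 (horizontal axis) against day 11 (vertical axis) for the 33 complex I genes, coloured by place in the complex; the dashed line marks equal values. ND-B8, ND-24 and ND-51 lie at -1.16 or below on both axes, while ND-B15, ND-30 and ND-19 lie near 0 at day 11 after values of -1.26, -1.13 and -1.03 at day 6.

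The genes were also compared between ages within each genotype. In controls the median change over the 33 genes was -0.17 from day 2 to day 6, with 0 called lower (0.355% of all genes). At an unadjusted p below 0.05, 7 of the 33 lay below 0, beside 468 of all 13791 genes tested in either direction. The single fit called 7, and the share of all genes it called is not given here. From day 2 to day 11 the median change was -0.27, with 3 called lower (0.892%). These 3 were ND-ACP (-1.25, 2.38-fold lower, SE 0.16 on Cy5 and 0.15 on Cy3, adjusted p = 0.025), ND-42 (-0.96, adjusted p = 0.00045) and ND-PDSW (-0.64, adjusted p = 0.048). The control ratios of ND-ACP ran from -0.53 to 0.46 at day 2 (median -0.11) and from -1.63 to -0.82 at day 11, without overlap. ND-B8 moved the other way in controls, by 0.73, without a call.

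In PABPN1-17ala thoraxes 6 genes were called lower from day 2 to day 6 (1.09% of all genes), with a median change of -0.34 over the 33. The change was -0.65 for ND-51 (adjusted p = 0.0087), -0.69 for ND-24 (adjusted p = 0.032), -0.76 for ND-20 (adjusted p = 0.036) and -0.98 for ND-42 (adjusted p = 0.00028). It was -0.42 for ND-AGGG (adjusted p = 0.018), whose ratios at day 6 ran from -0.46 to -0.13 (median -0.21), and -0.81 for ND-MNLL (adjusted p = 0.037), whose ratios moved from -0.30 to -0.09 at day 2 (median -0.13) to -1.16 to -0.78 at day 6 (median -1.02). The first 4 code for electron-carrying core subunits and for ND-42; the last 2 belong to the distal membrane arm. From day 2 to day 11 only ND-42 was called lower with PABPN1-17ala (-1.26, adjusted p = 8e-06), where 1.81% of all genes were, and the median change was 0.04. The decline of ND-42 was therefore called in each genotype, by 0.96 and 1.26 on the log2 scale, and the test of the difference between them gave -0.30 without a call. For ND-PDSW the corresponding changes were -0.64 in controls and 0.43 with PABPN1-17ala.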

How the data were processed

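The deposited table holds 1 log2 ratio per gene identifier and array, made by the authors from 2-colour arrays; background correction, normalization, log base and direction are not given in the sources used here. Of 13843 lines, 23 name no fly gene. Symbols came from the RefSeq table of the release 6 assembly plus ISO1 MT (12047 identifiers by locus tag, 1153 by synonym, 620 unnamed); no coordinates were used. Genes with values on at least 2 of 3 arrays of every condition and dye were tested (13791). Condition means were fitted with limma 3.58.1 in R 4.3.3, separately for the 18 arrays of each dye, with eBayes moderation. Differences on the log2 scale were averaged over the dyes; the less significant p of the dyes was kept (1 for opposite signs), adjusted by the Benjamini-Hochberg method across the tested genes, and called below 0.05. The fit was tested on simulated data. P-values measure the spread between arrays of a dye. Fits of each dye without moderation, other dye handling, normalization, replicate blocks and single arrays left out were tried as alternatives. The study's own two-way ANOVA over all arrays was not run. All 33 members are named; ratios are given for those called at a day, with age or in an interaction, or above control on both dyes. Members and lists were chosen with earlier results of these data known. Promoter motifs and sequences were not analysed here.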

Additional observations from a re-analysis of the deposited data

Results flagged for a closer look

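In 12 of 198 groups of 6 arrays (33 genes in 6 conditions) the highest or lowest array stood apart from the rest of its group by more than Dixon's test allows at the 95% level. For independent values of 1 distribution, chance gives about 1 in 20 groups. Each group here joined the arrays of both dyes, which may share extracts, so that rate need not apply. PABPN1-17ala day 11 replicate 4 was such an array for ND-75 (log2 ratio -0.11, the highest), ND-B14.7 (-1.60, the lowest) and ND-B15 (-2.02, the lowest). PABPN1-17ala day 2 replicate 3 stood low for ND-13A (-0.99) and ND-B18 (-0.71). Control day 6 replicate 1 stood low for ND-19 (-0.91) and ND-B17.2 (-0.37). The others were ND-24 on control day 11 replicate 1 (0.060), ND-13A on control day 2 replicate 6 (0.50), ND-B14 on control day 11 replicate 6 (0.64), ND-B12 on PABPN1-17ala day 6 replicate 2 (0.12) and ND-B15 on PABPN1-17ala day 6 replicate 5 (-1.41).

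The genotype difference changed with age in the interaction test for ND-51, by -1.02 from day 2 to day 6, and for ND-PDSW, by 1.08 from day 2 to day 11.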

How the results depend on the processing

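The counts of complex I genes called moved with the joining of the dyes, the moderation, the normalization and the conditions fitted. At days 2, 6 and 11 they were 5, 14 and 5; a joint fit of all arrays with a dye term gave 20, 23 and 10, the means of assumed pairs 20, 23 and 10, the Cy5 arrays alone 13, 23 and 8, and the Cy3 arrays alone 9, 16 and 7. The joint fit counts arrays that may share an extract as separate, and the assumed pairs average arrays whose pairing is not given. Fits without moderation gave 8 at day 6 and 3 at day 11, quantile normalization 8, 9 and 3, and the compared conditions only 23 at day 6 and 0 at day 11. The mean of the days gave 14 to 23 calls (20). For the interaction of days 2 and 6 (1), the joint fit gave 3, the assumed pairs and each dye alone 2, and no moderation 0. For that of days 6 and 11 (0), the joint fit gave 13 and the Cy5 arrays and the assumed pairs 9. For that of days 2 and 11 (1), they gave 9, 7 and 5, the Cy3 arrays 2, and no moderation, centring, quantiles and the compared conditions 0. Control day 6 against day 2 (0) gave 7, 7 and 4 in the same order and 2 with quantiles, and control day 11 against day 2 (3) gave 13, 16 and 13, the Cy3 arrays 10, and no moderation, centring, quantiles and the compared conditions 1. PABPN1-17ala day 6 against day 2 (6) gave 13, 14 and 13, 3 without moderation and 2 with quantiles, and day 11 against day 2 (1) gave 5, 5 and 5 and the Cy3 arrays 2. The median difference was -0.72 on Cy3 arrays and -0.71 with quantiles at day 2, and -0.52 with quantiles at day 6. The shares of all genes called in these alternatives are not given here. The counts therefore do not show whether a fit called more genes throughout or more complex I genes. The cause of these shifts was not tested.

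With single arrays left out, the counts ran from 4 to 11, 8 to 19 and 3 to 6 at days 2, 6 and 11, with the 3 of day 11 found without control day 11 replicate 4 or 6 or PABPN1-17ala day 11 replicate 5 or 6. The interactions ran from 0 to 1, 0 to 3 and 0 to 4, the upper 2 of these without PABPN1-17ala day 11 replicate 4, which also gave 7 of the range 1 to 7 for control day 11 against day 2; the lower end came without control day 2 replicate 4 or control day 11 replicate 5. PABPN1-17ala day 6 against day 2 ran from 2 to 8, below the main count by over 1.5 times without its Cy3 arrays of day 2 or day 6 replicate 6, and day 11 against day 2 from 1 to 2 (replicates 3 and 4 of day 11). Of 24 calls by day, 15 held without every single array, and 8 in every other alternative. Calls were also gained without PABPN1-17ala day 11 replicate 4. Among them were ND-15 and ND-B14.7, lower at days 2 and 6, and ND-ACP, higher at day 11.

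Replicate numbers were not taken to pair the samples. Arrays of 1 number in different conditions had deviations correlated by 0.017 on average (-0.205 to 0.294, 20 of 90 pairs above 0.1). For arrays of different numbers it was -0.0084 (-0.247 to 0.199, 20 of 180 pairs above 0.1). Such averages cannot decide whether arrays of 1 number shared a batch. With the number as a replicate block, 5, 15 and 4 genes were called at days 2, 6 and 11, and the interaction of days 2 and 11 gave 0.

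Of 99 differences of a gene on a day, 24 changed direction, none of them called on that day. On Cy3 arrays these were at day 2 ND-13B (-0.030), ND-B12 (0.0013) and ND-MLRQ (0.038), and at day 11 ND-30 (-0.13), ND-18 (0.010), ND-13A (0.37), ND-B14.7 (-0.062), ND-B16.6 (-0.11) and ND-B18 (0.069). On Cy5 arrays they were ND-ASHI (0.088) at day 2, ND-49 (0.070), ND-13A (0.050), ND-13B (0.012) and ND-B18 (0.053) at day 6, and ND-49 (-0.0041), ND-B14.5A (0.041), ND-B15 (0.033) and ND-MLRQ (0.21) at day 11. Quantiles turned ND-ACP (0.23), ND-AGGG (0.018) and ND-B18 (0.032) at day 6 and ND-30 (-0.067) at day 11, and centring ND-30 (-0.018). Leaving out single arrays gave ranges across 0 for ND-13B (-0.010 to 0.030) and ND-MLRQ (-0.32 to 0.00013) at day 2; for ND-13A (-0.036 to 0.010), ND-13B (-0.015 to 0.00089), ND-49 (-0.10 to 0.054) and ND-B18 (-0.079 to 0.048) at day 6; and for ND-13B (-0.019 to 0.16), ND-15 (-0.23 to 0.0092), ND-19 (-0.0010 to 0.28), ND-30 (-0.23 to 0.21), ND-B14 (-0.038 to 0.23), ND-B14.5A (-0.17 to 0.18), ND-B14.7 (-0.031 to 0.31), ND-B15 (-0.16 to 0.26) and ND-B18 (-0.077 to 0.048) at day 11.

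Beyond the 36 arrays, precision could not be judged: spot intensities were not used, so signal over background is unknown.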
